A study of Mus musculus with 8 samples.

Results

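Tfap2b, Shox2, Six2, Alx1, Osr1, Osr2 and Msx1 are transcription factors known for their part in patterning the embryonic palate and face, and their levels were followed here in the oral mucosa of the mouse. They were picked by name, with earlier results of these data known. They made up 7 of the 33549 gene entries that had a count, and each had a count in every sample. Tomo-seq was used, which counts the RNA of consecutive thin slices of a frozen block separately. The 8 samples came from wild-type C57BL/6J mice, with 2 replicates for each of 4 sites, hard palate, buccal mucosa (the inside of the cheek), dorsal tongue (its upper face) and ventral tongue (its underside). The groups shared genotype and strain and differed by site, and no age, sex or treatment is stated in the labels. Each sample had 20 sections of 14 µm, 280 µm in all, and section numbers run through the block without a label that says which end was the surface. The labels number the replicates without naming animals, so the p-values reflect sample-to-sample spread that may be technical in part.

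The secondary palate forms from shelves of neural crest-derived mesenchyme under an epithelium, and the shelves grow, lift and fuse in the midline. Factors expressed in overlapping domains of that mesenchyme divide the shelves along the front-to-back and the oral-to-nasal axes, and in mice the loss of Msx1, Osr2 or Shox2 leaves a cleft palate. Tfap2b belongs to the AP-2 family of neural crest and ectoderm, Six2 and Alx1 are homeodomain factors of head mesenchyme, and Osr1 and Osr2 are zinc finger factors related to odd-skipped of the fly.

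The stretches before the transcription starts of Tfap2b, Shox2 and Six2 are shown because these factors rose in the hard palate. RefSeq start sites on GRCm38.p6 were used, which gave 4 of the 7 factors a start, and Alx1, Osr1 and Osr2 had no entry in the table used. The Tfap2b window (chr1:19211804-19212053, plus strand) lies inside the annotated gene, in an intron of a transcript that starts farther upstream. The Shox2 window (chr3:66981772-66982021, minus strand) adjoins the annotated gene and lies in an intron of Rsrc1 on the other strand. The Six2 window (chr17:85688275-85688504, minus strand) adjoins the annotated gene, and 20 exonic bases next to the RefSeq start were left out. Capitals mark the core CAATTA of a homeodomain site, read on either strand.
Tfap2b: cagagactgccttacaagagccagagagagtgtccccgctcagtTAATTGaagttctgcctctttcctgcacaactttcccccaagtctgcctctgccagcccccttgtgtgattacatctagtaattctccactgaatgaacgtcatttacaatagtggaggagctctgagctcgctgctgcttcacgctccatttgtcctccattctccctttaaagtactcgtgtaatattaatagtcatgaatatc
Shox2: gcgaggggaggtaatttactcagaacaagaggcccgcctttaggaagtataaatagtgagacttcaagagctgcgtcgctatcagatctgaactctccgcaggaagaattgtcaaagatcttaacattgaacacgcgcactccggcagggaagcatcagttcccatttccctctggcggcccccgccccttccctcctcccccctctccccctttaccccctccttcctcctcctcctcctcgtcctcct
Six2: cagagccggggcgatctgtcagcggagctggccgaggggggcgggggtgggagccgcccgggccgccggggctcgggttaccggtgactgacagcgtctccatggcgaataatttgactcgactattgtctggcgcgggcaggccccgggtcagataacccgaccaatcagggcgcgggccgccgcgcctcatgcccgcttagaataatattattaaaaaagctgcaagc
The Tfap2b window held 1 match to CAATTA, beginning 206 bases before the start, and 7.17% of 32851 RefSeq windows of 250 bases held at least 1. No match to TAATTA (4.84% of windows) or to the AP-2 palindrome GCCNNNGGC (13.73% of windows) was found in these windows, nor in the window of Msx1, and such a search describes letters only.

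Total depth ran from 7830471 UMIs (distinct molecular tags, 1 for each captured RNA molecule) in buccal mucosa replicate 2 to 26376536 UMIs in hard palate replicate 2. Levels are given as UMIs of the gene per 1000000 UMIs of the sample (CPM), so a lower level can mean fewer cells of a type or less RNA per cell, which cannot be told apart in whole sections. Buccal mucosa replicate 2 stood apart: a list of 20 keratinocyte markers summed to 857 CPM there and to 27797 to 38915 CPM in the other 7 samples, and a salivary gland list of 12 summed to 16577 CPM against 17.5 to 73.4 CPM. The replicates of buccal mucosa correlated less across genes (Spearman rho 0.838 over 18609 genes) than those of the other sites (0.959 to 0.976). The hard palate samples held 453 and 210 CPM of 15 skeletal muscle markers, against 12654 to 39102 CPM elsewhere.

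Tfap2b, Shox2, Six2 and Alx1 rose in the hard palate against the mean of the other 3 sites, and Osr1, Osr2 and Msx1 did not pass the test. The comparison asked which factors marked the hard palate, by edgeR's quasi-likelihood test on UMIs summed over each sample. Of 18609 genes tested, 3.35% were called higher in the hard palate and 6.42% lower, at an adjusted p under 0.05. The fold changes of the 4 called factors ran from 2.33 to 4.86 on the log2 scale. The factors were chosen with earlier results of these data known, so the number called among them is a description.

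Tfap2b, the AP-2 factor whose human counterpart is mutated in Char syndrome, lies at chr1:19208914-19238576. It was counted at 212 and 202 CPM in the hard palate (replicates 1 and 2), 27.8 and 3.06 CPM in buccal mucosa, 7.54 and 5.81 CPM in dorsal tongue and 1.61 and 2.19 CPM in ventral tongue. Both hard palate samples lay above all 6 others, a separation that 22.6% of genes tested also showed. The mean was 207 ± 7.20 CPM (SD, n = 2) in the hard palate and 8.01 ± 9.98 CPM (SD, n = 6) elsewhere, and the log2 fold change was 4.86 ± 0.60 (SE; edgeR adjusted p = 0.00621). Without hard palate replicate 1 the fold stayed at 4.86 and the adjusted p was 0.0524. Within buccal mucosa the keratinocyte list was also higher in replicate 1, at 30713 against 857 CPM, and its part in the level of Tfap2b was not tested.

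Six2, a homeodomain factor best known for keeping kidney progenitors undifferentiated, lies at chr17:85684277-85688274. Its level was 17.4 and 24.1 CPM in the hard palate, 7.17 and 8.43 CPM in buccal mucosa, 3.15 and 3.12 CPM in ventral tongue and 1.13 and 1.97 CPM in dorsal tongue. Both hard palate samples lay above all others, a separation that 22.6% of genes tested also showed. No 2 sites overlapped, and the share of genes for which that held was not counted. The log2 fold change of the hard palate was 2.33 ± 0.28 (SE; edgeR adjusted p = 0.00531).

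Alx1, an aristaless-like homeodomain factor whose loss in humans causes frontonasal dysplasia, lies at chr10:102998707-103030215. It was seen at 6.99 and 12.3 CPM in the hard palate and at 4.94 and 6.67 CPM in ventral tongue. Dorsal tongue held 0.377 and 0.394 CPM, from 8 UMIs in each sample, and buccal mucosa 0.296 and 0.255 CPM, from 5 and 2 UMIs. In CPM, all samples of the palate and the underside of the tongue thus stood above those of the cheek and the upper face of the tongue. The share of genes with that order was not counted. By edgeR, buccal mucosa against ventral tongue did not pass (-4.46 ± 0.50, SE, adjusted p = 0.114). Dorsal against ventral tongue did not pass either (-3.80 ± 0.46, SE, edgeR adjusted p = 0.187). The log2 fold change of the hard palate was 3.18 ± 0.31 (SE; edgeR adjusted p = 0.00343), and its size rests on few molecules on the low side. Ventral tongue was also higher than the mean of its other 3 sites, by 2.61 ± 0.31 (SE; edgeR adjusted p = 0.0227), where 1.29% of genes were called higher. Buccal mucosa was lower, at -3.34 ± 0.46 (SE; edgeR adjusted p = 0.0430), where 0.118% of genes were called lower. The ventral tongue call was lost when any 1 sample of the palate or tongue was left out (log2 fold 2.33 to 2.72). The buccal call was lost when any 1 sample but buccal mucosa replicate 1 was left out (-3.45 to -3.17). Such fits leave 1 sample at a site. With a palate or tongue sample left out, far fewer of all genes were called in both comparisons.

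Shox2, a homeodomain factor of the anterior palate, limb and sinus node, lies at chr3:66971727-66981771. Its level was 14.8 and 45.5 CPM in the hard palate, 14.7 and 20.2 CPM in buccal mucosa, 0.989 and 0.886 CPM in dorsal tongue and 0.927 and 0.536 CPM in ventral tongue. Palate and cheek overlapped, and both lay above all tongue samples, an order whose share among all genes was not counted. The log2 fold change of the hard palate against the other sites was 3.42 ± 0.41 (SE; edgeR adjusted p = 0.00572), and 2.44 without hard palate replicate 2. Rsrc1 overlaps the 5′ end of Shox2 on the opposite strand, with 303 to 2079 UMIs a sample, and the sources used here do not say whether counting used the strand.

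**Figure D1:**
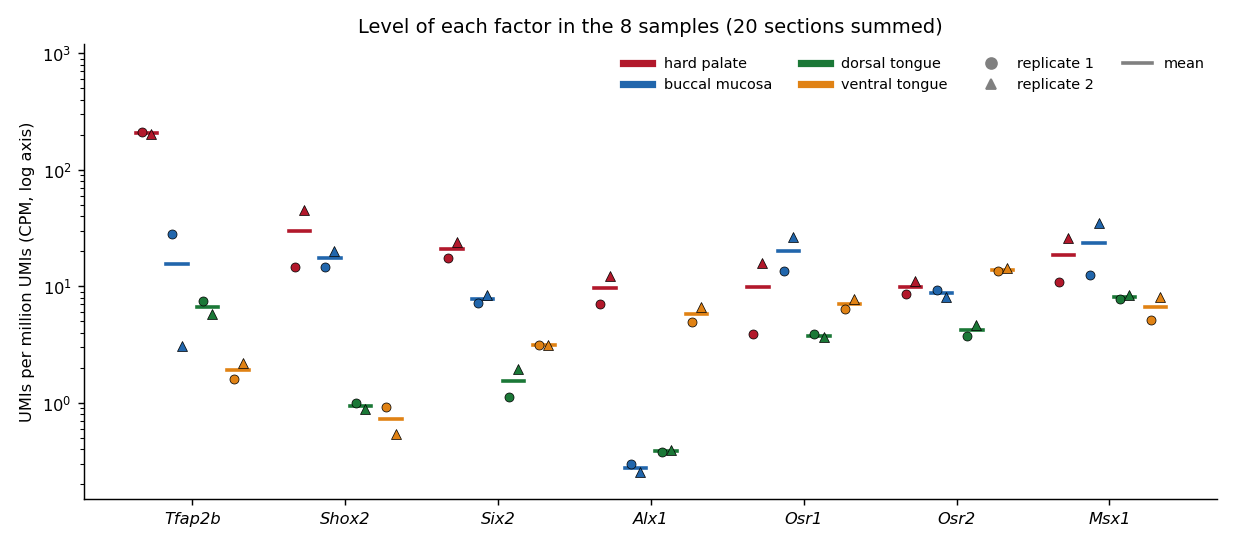
Level of each factor in the 8 samples, in CPM on a log axis, with circles for replicate 1, triangles for replicate 2 and a line at the mean of each site. Tfap2b, Six2 and Alx1 show the hard palate above every other sample, as did 22.6% of genes tested. Shox2 was at 14.8 CPM in hard palate replicate 1 and 14.7 CPM in buccal mucosa replicate 1.

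Osr1, Osr2 and Msx1 were spread over all sites. Osr1, an odd-skipped related factor of embryonic connective tissue, had 13.4 and 26.7 CPM in buccal mucosa, 3.89 and 15.8 CPM in the hard palate, 6.36 and 7.84 CPM in ventral tongue and 3.86 and 3.64 CPM in dorsal tongue. The replicates of the hard palate lay on either side of both ventral tongue samples. The fold of the hard palate against the other sites was -0.02 ± 0.53 on the log2 scale (SE; edgeR adjusted p = 0.988), and it was 0.72 without hard palate replicate 1 and -1.31 without replicate 2.

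Osr2, which in mouse embryos is expressed from the oral side of the palatal shelf, had its top levels in ventral tongue, at 13.5 and 14.4 CPM. The hard palate held 8.51 and 11.1 CPM, buccal mucosa 9.30 and 8.17 CPM and dorsal tongue 3.72 and 4.67 CPM. Both ventral tongue samples were above all others and both dorsal tongue samples below all others. The share of genes so separated was not counted for these sites, and for the hard palate above all others it was 22.6%. No single site passed for Osr2 against the rest (ventral tongue 1.08 ± 0.23, SE, edgeR adjusted p = 0.0885). The fold of the hard palate was -0.01 ± 0.24 (SE; edgeR adjusted p = 0.993).

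Msx1, a homeodomain factor of palate and tooth mesenchyme, stood at 12.6 and 34.7 CPM in buccal mucosa, 11 and 26.2 CPM in the hard palate, 7.82 and 8.36 CPM in dorsal tongue and 5.13 and 8.04 CPM in ventral tongue. Cheek and palate overlapped widely, since each had 1 low and 1 high replicate. The fold of the hard palate was 0.49 ± 0.47 (SE; edgeR adjusted p = 0.561).

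A test of any difference between the 4 sites passed for Tfap2b (adjusted p = 0.0275), Shox2 (0.0163), Six2 (0.0186) and Alx1 (0.0102) by edgeR, where 4.76% of genes passed. It did not pass for Osr1 (0.234), Osr2 (0.0824) or Msx1 (0.278). With any 1 sample of the hard palate, dorsal tongue or ventral tongue left out, none of the 4 kept its call. These fits leave 1 sample at a site, and far fewer of all genes passed in them too. Sections were also called epithelium-rich or epithelium-poor within each sample, by keratinocyte markers smoothed over neighbouring sections. Single epithelium-rich sections can thus score below some epithelium-poor ones. In epithelium-rich sections Six2 and Alx1 did not pass (edgeR adjusted p = 0.0604 each). Dorsal tongue against the other sites passed for none of the 7 factors by edgeR, where 0.838% of genes were called. The unadjusted edgeR p was under 0.05 for Shox2, Six2, Osr2 and Alx1 there, as it was for 1691 of 18609 genes. DESeq2 called 4 of the 7, beside 539 of 18609 genes.

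The hard palate was also compared with each site alone. Against buccal mucosa, where 6.2% of genes were called and 1.24% were called higher, Alx1 rose in the hard palate by 4.89 ± 0.50 (SE; edgeR adjusted p = 0.00524). Tfap2b missed the threshold at 3.56 ± 0.88 (SE; edgeR adjusted p = 0.0640), as did Six2 at 1.22 ± 0.37 (adjusted p = 0.103) and Shox2 at 0.60 ± 0.55 (adjusted p = 0.516). Against dorsal tongue, where 4.48% of genes were called and 0.854% were called higher, all 4 of these factors rose, Tfap2b by 4.56 ± 0.92, Shox2 by 4.60 ± 0.65, Six2 by 3.33 ± 0.41 and Alx1 by 4.22 ± 0.46 (SE; adjusted p from 0.00636 to 0.0435). Against ventral tongue, where 7.17% were called and 1.18% were called higher, Tfap2b rose by 6.46 ± 1.01, Shox2 by 5.05 ± 0.67 and Six2 by 2.42 ± 0.39 (SE; adjusted p from 0.00833 to 0.0153). Alx1 differed from ventral tongue by 0.43 ± 0.39 (SE; adjusted p = 0.565). Osr1, Osr2 and Msx1 passed in no pair with the hard palate. In epithelium-rich sections Alx1 missed against buccal mucosa (3.99, adjusted p = 0.0518) and Six2 against ventral tongue (3.62, 0.0502). Without dorsal tongue replicate 1, none of the 4 passed against dorsal tongue (log2 folds 2.97 to 4.73). Without replicate 2 of that site Six2 did and the other 3 did not (4.32 to 4.58). Tfap2b also missed there without either sample of the hard palate or ventral tongue (4.55 to 4.61), and Six2 without hard palate replicate 2 (3.09). Without either ventral tongue sample none of the 3 passed against ventral tongue (2.47 to 6.76). Without either hard palate sample Tfap2b and Six2 did not pass against ventral tongue (2.24 to 6.57). These fits leave 1 sample at a site, and they called fewer of all genes higher in the hard palate than the full fit did.

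**Figure D2:**
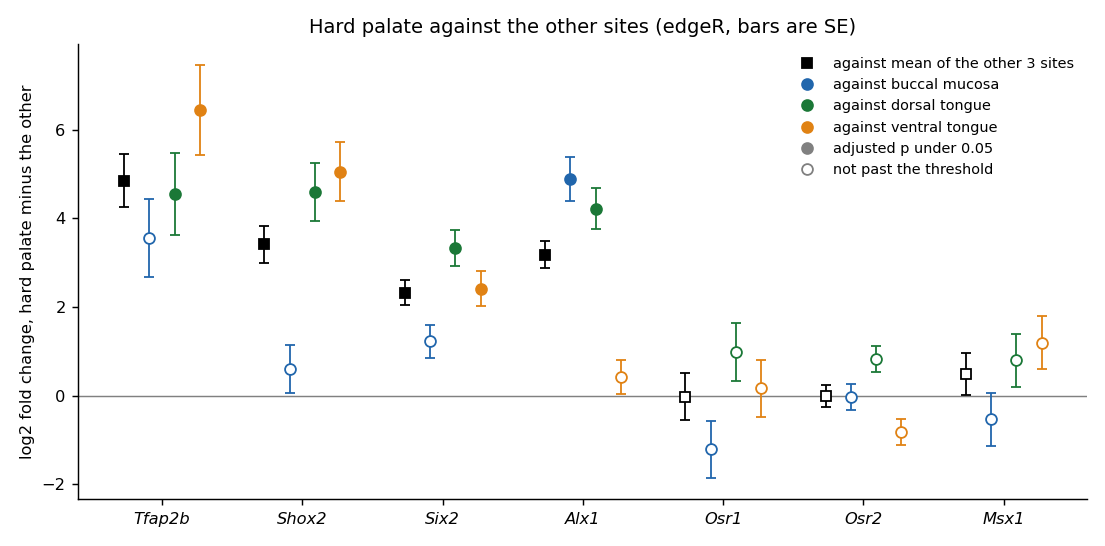
Log2 fold change of the hard palate against the mean of the other 3 sites (squares) and against each site (circles), with bars of 1 SE from edgeR and filled symbols where the adjusted p is under 0.05. Tfap2b, Shox2, Six2 and Alx1 have filled squares at 2.33 to 4.86, and only Alx1 among them is filled against buccal mucosa, at 4.89.

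When the sites were ordered by mean level for each factor, no pair of neighbours in the order passed by edgeR. The closest to the threshold was the step from hard palate to buccal mucosa for Tfap2b. The step of Alx1 from ventral to dorsal tongue was 3.80 ± 0.46 (SE; adjusted p = 0.187), in a comparison in which 0.00537% of genes were called. Between buccal mucosa and dorsal tongue 0.231% of genes were called, and between buccal mucosa and ventral tongue 0.0%.

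Markers of other tissues differed between the hard palate and the other sites beside these factors. Of 15 skeletal muscle markers 11 were lower in the hard palate, of 11 bone and cartilage markers tested 3 were higher (Ibsp, Col2a1 and Acan, at 1.92 to 6.45 CPM in the palate and at most 0.148 CPM elsewhere), and of 16 fibroblast markers 1 was higher (Postn, by 1.62 ± 0.38). None of the 20 keratinocyte markers passed by edgeR. Fibroblast markers summed to 4289 and 8697 CPM in the hard palate and 5176 to 8686 CPM elsewhere, and bone and cartilage markers to 65.0 and 158 CPM against 64.8 to 136 CPM. Odam, a protein of enamel-forming cells and of the epithelium at the tooth neck, was at 167 and 126 CPM in the palate and at most 0.984 CPM elsewhere. Of the other 7 genes of the tooth list, Klk4 was at 3.95 and 6.48 CPM in the palate and at most 3.35 CPM elsewhere (2.20 ± 0.61, SE; edgeR adjusted p = 0.0708). Amelx, Ambn, Amtn and Mmp20 were too low to test, at 0 to 0.902 CPM in the palate and at most 0.439 CPM elsewhere, Enam had 0 in the palate and Dspp had no count in any sample. The part of these tissues in the levels of the 7 factors was not tested. In epithelium-rich sections alone and in epithelium-poor sections alone, set by the keratinocyte list, the same 4 factors passed. In that order, the log2 fold was 5.17 and 4.88 for Tfap2b and 3.71 and 3.58 for Shox2. It was 2.67 and 2.43 for Six2 and 2.85 and 3.74 for Alx1. Both classes are relative to their own sample. The keratinocyte score was at most 6.02 in any section of buccal mucosa replicate 2 and at least 9.60 in every hard palate section. Epithelium content was thus not matched between sites.

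Shox2, Osr1 and Msx1 were lower in sections 1 to 10 than in sections 11 to 20 of the hard palate. The comparison asked whether the factors were spread evenly through the 280 µm of tissue, with the first and last 10 sections of a sample set against each other. In the hard palate 3.58% of 16625 genes were called lower in sections 1 to 10, and the CPM of 58.8% of genes was lower there in both samples. No factor was called higher, beside 2.63% of genes.

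Shox2 stood at 9.42 CPM in sections 1 to 10 and 21.5 CPM in sections 11 to 20 of hard palate replicate 1, and at 21.4 and 63.5 CPM in replicate 2. Sections 11 to 20 were higher in both, by a log2 difference of -1.21 ± 0.25 for first minus last (SE; edgeR adjusted p = 0.0229). Over single sections the level followed the section number in both replicates, with a Spearman rho of 0.823 and 0.950 over 20 sections each. In replicate 2 it went from 12.8 CPM in section 1 to 86.0 CPM in section 20.

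Osr1 stood at 2.23 and 5.97 CPM in sections 1 to 10 and 11 to 20 of replicate 1 and at 2.65 and 25.6 CPM in replicate 2. Replicate 2 held 30 Osr1 UMIs in sections 1 to 10 and 386 in sections 11 to 20, and replicate 1 held 22 and 47. The log2 difference was -2.38 ± 0.47 (SE; edgeR adjusted p = 0.0208). Without hard palate replicate 2 it was -1.20 (adjusted p = 0.516).

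Msx1 stood at 6.49 and 16.6 CPM in sections 1 to 10 and 11 to 20 of replicate 1 and at 6.98 and 40.6 CPM in replicate 2. The replicates were alike in sections 1 to 10 and parted in sections 11 to 20. The log2 difference was -1.81 ± 0.35 (SE; edgeR adjusted p = 0.0195). Without hard palate replicate 2, neither Msx1 (-1.14, adjusted p = 0.350) nor Shox2 (-0.97, adjusted p = 0.375) passed, and without replicate 1 Shox2 missed the threshold (-1.36, adjusted p = 0.0547).

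Six2 (14.4 and 21.1 CPM in sections 1 to 10 and 11 to 20 of replicate 1, 16.4 and 29.9 CPM in replicate 2), Osr2 (6.69 and 10.8 CPM, then 6.90 and 14.2 CPM) and Alx1 (4.76 and 9.78 CPM, then 7.96 and 15.5 CPM) had the same order in both palate samples. Their log2 differences of -0.52 (adjusted p = 0.177), -0.68 (0.0657) and -0.79 (0.0938) did not pass by edgeR. Tfap2b did not share that order. It was at 208 and 217 CPM in sections 1 to 10 and 11 to 20 of replicate 1 and at 235 and 177 CPM in replicate 2, a difference of 0.38 ± 0.18 (SE; edgeR adjusted p = 0.251).

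**Figure D3:**
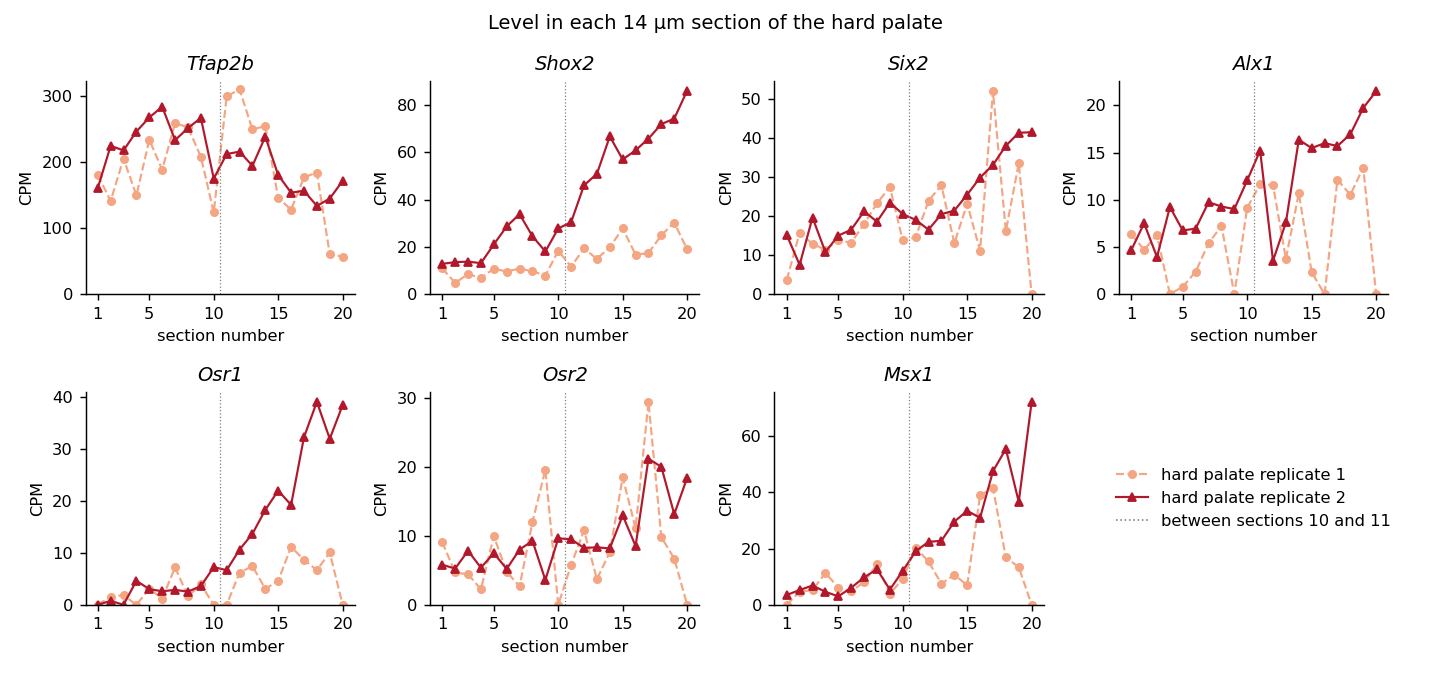
Level of each factor in the 20 sections of hard palate replicate 1 (light circles, dashed) and replicate 2 (dark triangles, solid), in CPM of the section, with a dotted line between sections 10 and 11. In replicate 2 Shox2 climbs from 12.8 CPM to 86.0 CPM and Msx1 ends at 72.2 CPM, while Tfap2b lies between 134 and 284 CPM throughout.

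Within hard palate replicate 2 the factors other than Tfap2b varied together from section to section, with Spearman rho from 0.720 (Six2 with Osr2) to 0.934 (Shox2 with Msx1) over 20 sections. Tfap2b went the other way, at -0.743 with Osr2 and -0.543 with Alx1. In replicate 1, which had fewer UMIs of most factors, rho lay between -0.177 and 0.603. Sections of 1 block share its depth profile and cell makeup, so these values are descriptions. Section totals also differed, and section 20 of replicate 1 had 52783 UMIs, with 0 UMIs of Six2, Alx1, Osr1, Osr2 and Msx1.

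Many markers of vessels, nerve and fat were also lower in sections 1 to 10 of the palate. In sections 1 to 10 of the hard palate, 6 of 8 endothelial, 5 of 7 smooth muscle and pericyte, 4 of 8 Schwann cell, 4 of 5 adipocyte and 3 of 16 fibroblast markers were lower, and none of 20 keratinocyte markers passed. Of 9 bone and cartilage markers tested, Col2a1 (1.77) and Acan (2.00) were higher there and Alpl (-1.96) and Phex (-1.73) lower on the log2 scale (adjusted p from 0.0139 to 0.0409). That list summed to 62.9 and 67.7 CPM in sections 1 to 10 and 11 to 20 of replicate 1, and to 95.3 and 206 CPM in replicate 2. The endothelial list summed to 92.8 and 204 CPM in sections 1 to 10 and 11 to 20 of replicate 1 and 87.9 and 289 CPM in replicate 2. Fibroblast markers summed to 3530 and 5239 CPM, and to 6717 and 10184 CPM, while keratinocyte markers summed to 38184 and 39830 CPM, and to 38035 and 29767 CPM. The part of these cells in the differences was not tested. With the sections split by the keratinocyte list in place of section number, no factor passed in the hard palate (Shox2 -0.42, Osr1 -1.45 and Msx1 -0.64, with adjusted p of 1.0 each), and 4 of all genes did. Epithelium-rich sections were 13 in replicate 2, with all of sections 1 to 10, and 9 in replicate 1, mostly in sections 11 to 20. The split thus ran in opposite directions through the 2 samples, so their average cannot show whether the factors followed epithelium. Spearman rho of Shox2, Osr1 and Msx1 with the keratinocyte score was -0.729, -0.723 and -0.678 in replicate 2. It was 0.065, -0.156 and -0.005 in replicate 1.

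Averaged over the 4 sites, Shox2 (-0.77 ± 0.26, adjusted p = 0.0397), Six2 (-0.57, adjusted p = 0.0233), Osr1 (-0.88, adjusted p = 0.0129) and Msx1 (-0.72, adjusted p = 0.0129) were lower in sections 1 to 10 by edgeR. That is 4 of 7 factors beside 19.9% of genes called lower and 16.2% called higher. Tfap2b (0.13), Osr2 (-0.27) and Alx1 (-0.27) did not pass. Each of these calls was lost when certain single samples were left out. Shox2 and Six2 missed without hard palate replicate 2, buccal mucosa replicate 1, either dorsal tongue sample or ventral tongue replicate 1 (adjusted p from 0.0603 to 0.214), where Six2 was as small as -0.34, and Shox2 also without ventral tongue replicate 2 (0.0696). Osr1 missed without hard palate replicate 2 (-0.51, adjusted p = 0.0782), dorsal tongue replicate 2 (0.0594) or ventral tongue replicate 1 (0.0569), and Msx1 without replicate 2 of dorsal tongue (0.0527) or of ventral tongue (0.0615). With reads in place of UMIs, Shox2 (-0.66, adjusted p = 0.0717) and Six2 (-0.52, 0.101) missed. None of the 4 kept its call when the sections were split by the keratinocyte list.

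The order of the first and last sections was not the same at every site. In buccal mucosa replicate 2 Msx1 went from 47.7 to 24.7 CPM and Osr1 from 34.9 to 20.4 CPM, while in buccal mucosa replicate 1 Msx1 went from 10.7 to 16 CPM and Osr1 from 11.4 to 16.9 CPM. In ventral tongue Osr2 was the higher in sections 1 to 10 of both samples, at 15.4 against 12.2 CPM and 17.1 against 11.6 CPM, the opposite of its order in the palate and in dorsal tongue (2.44 against 4.67 CPM and 3.62 against 5.57 CPM). That difference in ventral tongue did not pass (0.37 ± 0.18, SE; edgeR adjusted p = 0.177). Tfap2b in buccal mucosa was at 34.7 CPM in sections 1 to 10 and 16.1 CPM in sections 11 to 20 of replicate 1. In replicate 2 it was at 6.15 and 0.679 CPM. These levels rest on 370 and 100 UMIs in replicate 1 but on 21 and 3 UMIs in replicate 2. The keratinocyte list summed to 857 CPM in replicate 2, against 30713 CPM in replicate 1. Tfap2b was higher in sections 1 to 10 by 1.24 ± 0.29 (SE, edgeR adjusted p = 0.0369), where 2.16% of genes were called higher. This was the 1 call among 21 tests of the 7 factors in buccal mucosa, dorsal tongue and ventral tongue, where 6.99%, 7.25% and 20.1% of genes were called, and it was picked out after its value was seen. It was lost without buccal mucosa replicate 1 (3.06, adjusted p = 0.120), without either sample of dorsal or ventral tongue (0.0523 to 0.0636) and when the sections were split by the keratinocyte list (1.44, 0.126). The dependence of the difference between first and last sections on site did not pass for any factor by edgeR, with adjusted p from 0.166 (Tfap2b) to 0.734 (Alx1), where 0.421% of genes passed. Unadjusted edgeR p was under 0.05 for Tfap2b, Osr1, Osr2 and Msx1, as it was for 2635 of 16625 genes. DESeq2 called 2 factors, beside 423 of 11790 genes.

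**Figure D4:**
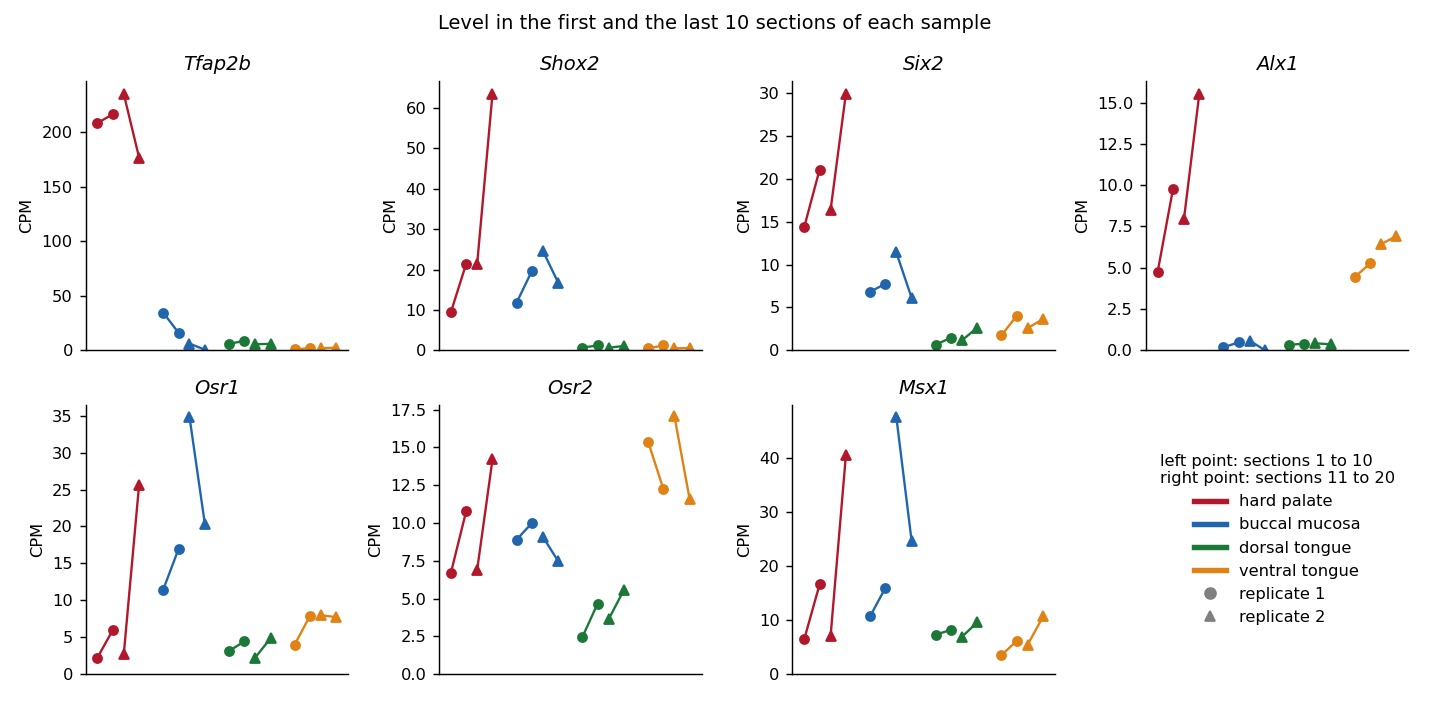
Level of each factor in sections 1 to 10 (left point) and 11 to 20 (right point) of each sample, joined by a line, in CPM on a linear axis from 0, with circles for replicate 1 and triangles for replicate 2. Shox2, Six2, Alx1, Osr1, Osr2 and Msx1 end higher in both hard palate samples, and Osr2 ends lower in both ventral tongue samples.

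The nearest relatives of the 7 factors did not follow a common direction. Of 16 paralogs 14 were tested, of which 1 rose and 3 fell in the hard palate, with a median log2 fold change of 0.24 against -0.01 for all genes. Six3, a homeodomain factor of forebrain and eye, rose by 6.93 ± 0.58 (SE; edgeR adjusted p = 0.00279), from 17.2 and 16.3 CPM in the palate and 0 to 0.390 CPM in the other 6 samples. It lies 55.0 kb from Six2 on chromosome 17, at chr17:85613608-85629302. Six4, a relative with a known part in muscle, fell by 3.72 on the log2 scale (edgeR adjusted p = 0.00812). Of 15 skeletal muscle markers 11 were also lower, and the part of muscle in the level of Six4 was not tested.

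Other AP-2 genes did not pass. Tfap2c was at 118 and 96.8 CPM in the palate and 3.83 to 58.8 CPM elsewhere (1.40 ± 0.66, adjusted p = 0.240), and Tfap2a at 154 and 127 CPM against 14.4 to 158 CPM (0.33 ± 0.72, adjusted p = 0.816). Tfap2d, which lies 42.6 kb from Tfap2b, was at 2.25 and 3.60 CPM against 0.119 to 4.63 CPM, and Tfap2e at 14.0 and 10.5 CPM against 1.15 to 7.25 CPM. Msx2, the relative of Msx1, was at 67.8 and 56.3 CPM in the palate and at most 34.0 CPM elsewhere, and missed the threshold (2.08 ± 0.54, adjusted p = 0.0577). Through the palate Msx2 was higher in sections 1 to 10 (0.85 ± 0.13, adjusted p = 0.00872), the opposite of Msx1, and Prrx1 was lower there (-1.01, adjusted p = 0.0139). Six5, Alx4, Prrx1 and Prrx2 did not pass between sites, and Six6 and Msx3 were too low to test, at no more than 0.638 CPM.

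Of 45 other palate and jaw factors tested, 8 rose and 8 fell in the hard palate, with a median of 0.09 on the log2 scale. Zfhx4 rose by 2.76 ± 0.32 and Meis2, a homeodomain cofactor, by 2.51 ± 0.23. Meis2 was at 194 and 139 CPM in the palate and 7.23 to 52.3 CPM elsewhere. Nkx2-5 (-6.66 ± 0.93), Tbx15 (-5.66 ± 0.49) and Hand2 (-4.84 ± 0.46), a marker of the embryonic lower jaw, fell the most. Hand2 was at 0.620 and 0.265 CPM in the palate, 1.95 ± 0.59 CPM in buccal mucosa and 18.1 ± 3.83 and 29.5 ± 4.27 CPM in dorsal and ventral tongue (SD, n = 2). Of 22 signalling genes of palate growth tested, 3 rose and 1 fell. Sfrp2 rose by 2.40 ± 0.48, Bmp7 by 2.32 ± 0.34 and Gli3, a transducer of hedgehog signals, by 2.03 ± 0.24, while Fgf7 fell by 1.34 on the log2 scale.

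For each factor the 3 genes with the most similar pattern over the 8 samples were found by Pearson's r of log2(CPM + 1), as a description without a test. Ryr3, a calcium release channel, was closest to Tfap2b (r = 0.995), at 31.0 CPM in the palate and 5.51 to 10.1 CPM at the other sites, followed by Aven and Ascc3. Chrdl1, a BMP antagonist, was closest to Shox2 (r = 0.974), with means of 29.3 CPM in the palate, 17.3 CPM in buccal mucosa and 4.35 and 3.90 CPM in dorsal and ventral tongue, ahead of Tmx1 and Acd. Barx1, a homeodomain factor of jaw mesenchyme, was closest to Osr2 (r = 0.959), at 14.1 CPM in ventral tongue and 1.59 CPM in dorsal tongue, ahead of E130311K13Rik and Spock2. For Alx1 these were Cavin3, Cemip2 and Cyp17a1 (r = 0.953 to 0.950), for Six2 Rfc3, Camkk2 and Pip4p1, for Osr1 Pid1, Apba1 and Myl9, and for Msx1 Micall1, Zfp810 and Smoc2. The search covered 12111 genes with a mean of at least 5 CPM (12112 for Alx1), and nothing is said of shared function or control. Other annotated neighbours within 5 kb held few UMIs, with at most 1 for Gm28340 beside Tfap2b and for 1700022H16Rik beside Osr1, and at most 10 for BC048602 beside Osr2. Gm17028, a noncoding gene that overlaps Alx1 on the same strand, had no entry of its own in the deposited counts and could not be analysed.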

How the data were processed

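RNA of single 14 µm sections was made into CEL-seq2 libraries, which count 3′ ends by unique molecular identifier (UMI), and sequenced on a NextSeq500, per the labels' protocols. The submitters' processing notes list Trim Galore 0.6.10, STAR 2.7.9a and GRCm38, and no source used here gives the counting program or its use of strand. Files deposited by the authors hold, per gene and section, counts of UMIs, counts of reads and, as the values show, expected counts of transcripts corrected for UMI collisions. UMI counts were used unless stated. No factor exceeded 557 UMIs in a section.

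Counts were summed over the 20 sections of each sample, or over sections 1 to 10 and 11 to 20. Entries naming several genes (413 of 33549, none with a listed factor) stayed in the totals. The quasi-likelihood test of edgeR 4.0.16 (R 4.3.3) was run after filterByExpr with TMM factors, and p-values were Benjamini-Hochberg adjusted over all genes tested, with a threshold of 0.05. The site fit had 4 site means over 8 samples; the fit of first and last sections had the sample as a block. Contrasts against 3 sites used their average log level. SE is the fold change divided by the square root of F. Expected counts were rounded before testing. Gene positions came from GENCODE vM21 on GRCm38, promoter windows from RefSeq. Sections were called epithelium-rich or epithelium-poor within a sample by the mean log2(CPM + 1) of 20 keratinocyte genes, smoothed over 3 sections and split by the Otsu threshold. Of other lists, the text names the 3 largest called rises and falls with at least 5 CPM in the higher group, all paralogs and, for each factor, the 3 most alike genes. Some genes this rule selects are not reported here, though list counts include them. Alternatives were RLE scaling, no filter, reads, expected counts, DESeq2 1.42.0, a replicate block, both kinds of sections and leaving out each sample. Tests of first against last sections in single sites other than the palate, with their alternatives, were added after seeing the data. The factors and gene lists were chosen with earlier results of these data known. Totals were 7830471 to 26376536 UMIs a sample, and a count of 0 allows up to 3 UMIs, for counting error only.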

Additional observations from a re-analysis of the deposited data

How the results depend on the processing

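The rises of Shox2, Six2 and Alx1 in the hard palate kept their direction and stayed past the threshold under every alternative run, and that of Tfap2b under all but the one without hard palate replicate 1 (4.86, adjusted p = 0.0524). Leaving out 1 sample gave ranges of 4.57 to 5.70 for Tfap2b, 2.44 to 4.07 for Shox2, 2.11 to 2.60 for Six2 and 2.76 to 3.58 for Alx1, of -1.31 to 0.72 for Osr1, -0.16 to 0.22 for Osr2 and -0.22 to 1.04 for Msx1, and of 3 to 4 factors called. Some values that did not pass changed sign. Osr1 in the hard palate was 0.01 under RLE and DESeq2, 0.04 without a filter, 0.03 with expected counts and 0.57 in epithelium-poor sections, and Osr2 was 0.03 under RLE, DESeq2 and expected counts, 0.04 without a filter, 0.14 in epithelium-rich and 0.10 in epithelium-poor sections. Against buccal mucosa Osr2 was 0.02 under RLE and DESeq2, 0.03 without a filter and 0.22 in epithelium-rich sections (-0.19 to 0.20 without 1 sample), Shox2 -0.38 to 1.25 and Msx1 -1.24 to 0.38. In buccal mucosa against the rest Tfap2b was -0.17 with the replicate block and -0.66 in epithelium-poor sections (-2.26 to 0.95 without 1 sample), and Osr2 -0.00 without a filter and -0.16 in epithelium-rich sections (-0.11 to 0.10). Osr1 against ventral tongue was -0.05 with the replicate block and -0.35 in epithelium-rich sections (-1.09 to 0.94), and Six2 in dorsal against ventral tongue 0.14 in epithelium-rich sections. Tfap2b in buccal mucosa against dorsal tongue ran from -1.38 to 1.83 without 1 sample, Osr1 in ventral tongue against the rest from -0.53 to 0.15, the difference between first and last sections, averaged over sites, of Tfap2b from -0.03 to 0.65 and that of Alx1 from -0.60 to 1.18, with 0.36 when sections were split by keratinocyte level. Tfap2b in buccal mucosa, first against last sections, ran from 1.00 to 3.06 without 1 sample and Osr2 in ventral tongue from 0.25 to 0.50.

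Factors called in buccal mucosa, 1 at first, were 4 without a filter, 2 with reads, expected counts or DESeq2, and 0 with the replicate block or either kind of section (0 to 5 without 1 sample). In dorsal tongue 0 became 5 without a filter and 4 with DESeq2 (0 to 3), and in ventral tongue 1 became 3 without a filter, 4 with DESeq2 and 0 with the replicate block or epithelium-rich sections (0 to 4). Any difference gave 2 in epithelium-rich sections (0 to 6). First against last sections averaged over sites gave 2 with reads and 0 by keratinocyte level (0 to 5), in the palate alone 5 without a filter and 0 by keratinocyte level (0 to 5), their dependence on site 5 without a filter and 2 with DESeq2 (0 to 2), and the pairs 18 calls without a filter or with DESeq2 (4 to 19). Over all genes, the hard palate's 1817 calls became 3728 without a filter, 3109 with DESeq2 and 535 in epithelium-rich sections (318 to 5526 without 1 sample). Any difference gave 886 calls, and 4522 without a filter, 3284 with DESeq2, 362 with the replicate block and 192 in epithelium-rich sections (0 to 5684). First against last sections gave 6006 averaged over sites, and 3563 by keratinocyte level (3526 to 6618). In the palate alone they gave 1032, and 2321 without a filter, 563 with reads and 4 by keratinocyte level (77 to 2499). Buccal mucosa gave 134 calls, and 2584 without a filter, 1439 with DESeq2 and 2 with the replicate block. In epithelium-rich and epithelium-poor sections it gave 6 and 376. Dorsal tongue gave 156, and 1282 without a filter and 539 with DESeq2. Ventral tongue gave 240, and 1321 without a filter, 855 with DESeq2, 48 with the replicate block and 0 in epithelium-rich sections. Dependence on site gave 70, and 1958 without a filter and 423 with DESeq2. The causes were not tested. Replicate numbers were not taken as pairing the samples, since correlations of same-numbered deviations were 0.544 between dorsal and ventral tongue and -0.21 to 0.14 between the other sites, and the labels name no animals. With the replicate block the hard palate gave 1334 calls. With 2 samples a site, a factor that missed the threshold may still differ, and Alx1 rests on 2 to 8 UMIs a sample in buccal mucosa and dorsal tongue.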
